A study of Mus musculus with 64 samples.

Results

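The 5 genes described here, Cbr1, Cbr3, Ets2, Psmg1 and Brwd1, lie on mouse chromosome 16 on the lower-coordinate side of Hmgn1, a gene that is inactivated in one of the mouse lines studied. They were taken by name, with all of their 9 probes, from 16593 genes read by an Illumina MouseRef-8 expression array of 25697 probes. Cbr3 was chosen by its higher measured level in the thymus of the double knockout, so the double knockout values of the thymus are given below as a description with no test. RNA of 4 organs (thymus, spleen, liver and brain) came from 16 males, each 21 weeks old, with 1 array for each organ of each mouse and 64 arrays in all. The mice formed 4 groups of 4. Wild types and Hmgn2 knockouts (Hmgn2-/-) carried the strain label C57BL/6 and are called cohort 1. Wild types and double knockouts lacking both Hmgn1 and Hmgn2 (Hmgn1-/-n2-/-) carried the strain label C57BL/6J and are called cohort 2. No treatment is named in the labels, and strain label and mutant line cannot be told apart across the cohorts.

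The HMGN proteins attach to nucleosomes and change how tightly chromatin is packed. The end of mouse chromosome 16 that holds these genes corresponds to the part of human chromosome 21 studied in Down syndrome. CBR1 and CBR3 are carbonyl reductases, enzymes that use NADPH to reduce carbonyl groups of quinones, drugs and lipids. ETS2 is a transcription factor of the ETS family that acts downstream of Ras and MAP kinase signals. PSMG1 is a chaperone that works with PSMG2 in building the proteasome core, and BRWD1 is a nuclear protein with WD repeats and bromodomains, which bind modified histones.

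Positions are those of the RefSeq gene table of GRCm38.p6. Cbr1 (chr16:93607837-93610349, plus strand) and Cbr3 (chr16:93683219-93690991, plus strand) are 72.9 kb apart and lie 2510 and 2430 kb from Hmgn1 (chr16:96121588-96127725, minus strand). Ets2 (chr16:95702407-95721049, plus strand) lies 401 kb from Hmgn1. Psmg1 (chr16:95979933-95990960) and Brwd1 (chr16:95992089-96082703), both on the minus strand, are separated by 1128 bases and lie 131 and 38.9 kb from it. Hmgn2 is on chromosome 4. The sources used here do not give the sequence that each probe targets, so cross-hybridization between the related Cbr1 and Cbr3 transcripts was not tested, nor was the place of a probe within a gene.

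The 250 bases before the annotated start are shown for Cbr1, Cbr3 and Ets2, because the reductases, although neighbours on the map, differ in base composition, and Ets2 is the gene of the 3 with the most CG dinucleotides. The window listed for Brwd1 starts inside the annotated extent of the gene and was not used, so 4 windows were searched. The sequences are from RefSeq on GRCm38.p6, on the plus strand at chr16:93607587-93607836, chr16:93682969-93683218 and chr16:95702157-95702406, and capitals mark each CG dinucleotide.
Cbr1: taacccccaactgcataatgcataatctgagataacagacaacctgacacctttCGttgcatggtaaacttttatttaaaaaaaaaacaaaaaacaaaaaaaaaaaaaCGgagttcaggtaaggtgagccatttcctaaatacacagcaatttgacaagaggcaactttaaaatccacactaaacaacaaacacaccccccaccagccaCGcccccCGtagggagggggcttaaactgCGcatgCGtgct
Cbr3: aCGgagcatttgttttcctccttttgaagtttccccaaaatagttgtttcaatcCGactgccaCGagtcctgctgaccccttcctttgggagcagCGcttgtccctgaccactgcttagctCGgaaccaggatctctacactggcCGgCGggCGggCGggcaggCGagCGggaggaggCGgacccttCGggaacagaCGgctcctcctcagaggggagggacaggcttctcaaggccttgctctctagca
Ets2: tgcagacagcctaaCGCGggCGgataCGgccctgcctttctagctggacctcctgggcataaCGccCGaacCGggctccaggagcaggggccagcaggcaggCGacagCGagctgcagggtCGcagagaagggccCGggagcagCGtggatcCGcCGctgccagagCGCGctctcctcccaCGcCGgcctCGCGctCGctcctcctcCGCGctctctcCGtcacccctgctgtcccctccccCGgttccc
Cbr1 has 6 CG dinucleotides here and a GC content of 41.6%, against a median of 6 and 52.4% over 32841 promoters of this length. Cbr3 has 14 and 59.6%, Ets2 has 25 and 71.6%, and Psmg1 has 23 and 66%. The core of the antioxidant response element, TGACNNNGC on either strand, is present in 10.2% of these promoters and was found in none of the 4 windows. An ETS site spelled CCGGAAG, on either strand, is present in 6.91% of promoters and was found once, before Psmg1.

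Before any comparison, the targeted genes were read. In the brain of the Hmgn2 knockout the Hmgn2 probe was not above background on any of the 4 arrays, and its mean level was 4.58 against 10.53 in the wild types, at least 53.1-fold lower (adjusted p = 3.68e-17, limma). The bound takes, on each such array, the higher of the lowest signal among detected probes and the probe's own signal. In the thymus of the Hmgn2 knockout the probe was above background on 3 of 4 arrays and fell by 7.40 ± 0.416 (SE) on the log2 scale (adjusted p = 2.74e-08, limma). The thymus arrays of the double knockout read 4.64, 7.20, 6.78 and 5.05 for Hmgn2, against 12.76 to 12.84 in their wild types, so replicates 2 and 3 lay above replicates 1 and 4. The spleen has 2 libraries whose Hmgn2 level goes against the label. Replicate 4 of those labelled wild type of cohort 2 read 6.33, against 11.80 to 12.25 in the rest of its group, and replicate 1 of those labelled double knockout read 12.13, against 4.28 to 4.83. Counts and differences in the spleen of cohort 2 are given with these libraries, and without them where that is stated. The single Hmgn1 probe stayed bright in the double knockout, at 11.66 to 11.82 in the thymus against 12.08 to 12.23 in its wild types, and whether it lies inside the deleted part is not given, so it does not check the Hmgn1 label. Probes detected per array ran from 9550 to 13411. The double knockout arrays detected fewer probes than those of their wild types, without overlap, in the thymus (11664 to 12505 against 12600 to 13096), the liver (9550 to 9938 against 10037 to 10407) and the spleen (12138 to 12652 against 12692 to 13100), and its part in the results was not tested. Values are log2 levels after background correction and quantile normalization within the organ, unless another normalization is named. The sign ± gives the standard error of limma with n = 4 arrays a group unless SD is written. A call is an adjusted p under 0.05 over all genes tested in the organ.

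In wild types, each gene had its own order of organs, given here from a normalization of all 64 arrays together, over 8 mice in each organ. Ets2 was highest in the thymus, at 12.21 ± 0.0569 (SD), with brain at 9.82 ± 0.144, spleen at 9.77 ± 0.359 and liver at 9.14 ± 0.0923. Brain and spleen overlapped, while every thymus value lay above every value of the other organs. Cbr1 was highest in the liver, at 9.01 ± 0.136, followed by brain at 8.10 ± 0.251, thymus at 7.96 ± 0.155 and spleen at 7.00 ± 0.401. Brain and thymus overlapped. Cbr3 differed from it in the place of the liver, with 7.89 ± 0.36 in the brain, 7.59 ± 0.151 in the thymus, 7.17 ± 0.184 in the spleen and 5.82 ± 0.232 in the liver. Brain overlapped with thymus and spleen, and the liver lay below all of them. The liver is the organ where Cbr1 was highest and Cbr3 lowest, although levels of different probes are not on 1 scale. Psmg1 was near 8.10 ± 0.0815 in the liver and 8.00 ± 0.077 in the thymus, which overlapped, and lower in the spleen (7.09 ± 0.338) and brain (6.85 ± 0.192), which overlapped too. Brwd1, on the probe coded ILMN_2834573 that stands for it in brain, liver and thymus, read 8.69 ± 0.149 in the brain, 8.54 ± 0.385 in the spleen and 8.33 ± 0.148 in the thymus, which overlapped, and 7.40 ± 0.233 in the liver, below the others. These spleen values include the library against its label, without which the 7 others average 7.03 for Cbr1, 7.13 for Cbr3, 9.76 for Ets2, 7.09 for Psmg1 and 8.56 for Brwd1. Among Brwd1's probes, the one coded ILMN_1227839 was detected on 0 of 8 wild-type arrays in the brain and in the liver, on 1 in the thymus and on 5 in the spleen, while the other 3 probes were detected on all 8 arrays of each organ.

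**Figure D1:**
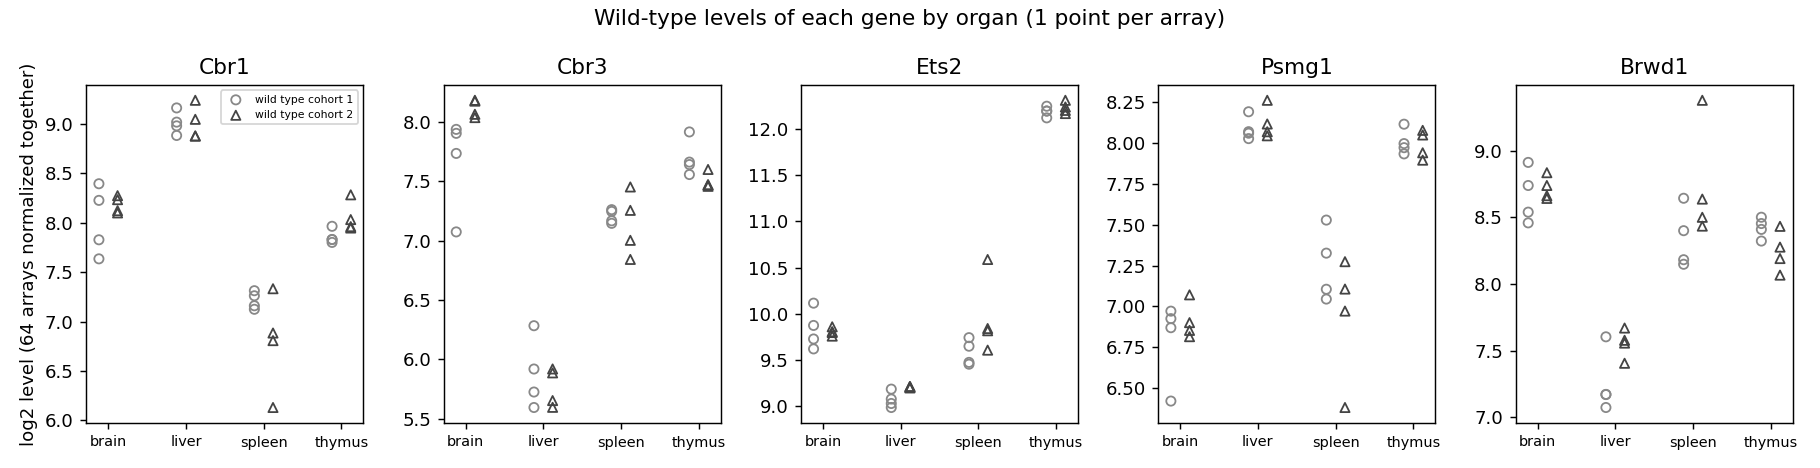
Log2 level of each gene (64 arrays normalized together) in 8 wild-type mice per organ, circles for cohort 1 and triangles for cohort 2, 1 point per array, with a separate vertical scale for each gene. Ets2 sits between 12.12 and 12.31 in the thymus, above all other organs, and Cbr3 is lowest in the liver.

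In the Hmgn2 knockout thymus, where Hmgn1 is not targeted, 4 of the 5 genes changed. Ets2 and Brwd1 rose, Cbr1 and Cbr3 fell, and Psmg1 did not pass. In that comparison 15.5% of 9041 genes were called, 7.22% of them higher and 8.32% lower as shares of all genes tested, so calls were common in this organ, and 15.3% of genes had groups that did not overlap. Over the 4 organs these were 4 calls in 20 tests of the 5 genes, against 4.01% of all tests, and brain, liver and spleen gave none. Those organs called 0.0218%, 0.0131% and 0% of genes for the Hmgn2 knockout.

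Ets2 read 12.10, 12.04, 12.14 and 12.10 in the thymus of the wild types and 12.68, 12.75, 13.07 and 12.65 in the Hmgn2 knockouts. All 4 knockouts lay above all wild types. The rise was 0.69 ± 0.0967, or 1.61-fold (adjusted p = 4.2e-04, limma). In the raw intensities the groups overlapped, at 4380 to 5061 in wild types and 4011 to 5296 in knockouts. Brwd1 read 8.64, 8.51, 8.69 and 8.60 in the wild types and 8.82, 9.25, 9.38 and 9.03 in the knockouts, again without overlap. Its rise was 0.51 ± 0.115, or 1.42-fold (adjusted p = 0.00806, limma), while the raw intensities overlapped, at 451.3 to 520.7 and 452.9 to 588.3. With every probe tested, a further Brwd1 probe rose by 0.39 ± 0.125 with overlapping groups (adjusted p = 0.0463, limma) and another differed by 0.23 ± 0.106 without passing (adjusted p = 0.155, limma).

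The reductases went the other way in the same arrays. Cbr3 read 7.75, 7.86, 7.84 and 8.11 in the thymus of the wild types and 7.33, 7.55, 7.24 and 7.33 in the Hmgn2 knockouts, without overlap. It fell by 0.52 ± 0.0943 on the log2 scale, 1.44-fold lower (adjusted p = 0.00197, limma). The other Cbr3 probe fell by 0.48 ± 0.143 (adjusted p = 0.0334 with every probe tested, limma). Cbr1 read 8.16, 8.00, 8.03 and 8.03 in the wild types and 7.75, 7.77, 7.54 and 7.49 in the knockouts, and fell by 0.42 ± 0.0951, 1.34-fold lower (adjusted p = 0.00809, limma). Raw intensities of both also separated, with Cbr3 at 322.6 to 349.6 in wild types and 206.7 to 220.8 in knockouts. The raw signal of the knockout arrays was lower in general, as the next paragraph gives. Normalized levels of Psmg1 overlapped between the groups, at 8.13 to 8.31 and 7.68 to 8.21, and differed by -0.25 ± 0.113 (adjusted p = 0.139, limma). Although Psmg1 was not called, its raw intensities separated too, at 353.0 to 426.1 in wild types and 247.3 to 312.6 in knockouts. Hmgn1 itself fell by 0.34 ± 0.0862 (adjusted p = 0.0137, limma), a call lost with the 8 arrays alone (adjusted p = 0.109) and with the replicate block (adjusted p = 0.0546), and by 0.75 with median scaling, 0.58 below the shift of all genes given next.

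Some features of the arrays moved with these results. The 95th percentile of the raw signal was 806.8 to 933.4 on the thymus arrays of the Hmgn2 knockout and 1072 to 1257 on those of the wild types, without overlap. Scaling arrays by their median in place of quantiles shifted the median of all genes by -0.17 and turned the calls from 7.22% higher and 8.32% lower to 0.907% higher and 24.6% lower. Under that scaling Ets2 differed by 0.19 (adjusted p = 0.228) and Brwd1 by 0.24 (adjusted p = 0.145), both still positive and 0.36 and 0.41 above the shift, but no longer called. Cbr3 and Cbr1 fell by 0.72 and 0.63 there, with adjusted p = 2.43e-05 and 1.73e-04 in limma, and Psmg1 fell by 0.48 (adjusted p = 0.00584, limma). Relative to the shift of all genes these were -0.56, -0.46 and -0.31. Of 4 listed genes of red cell precursors, 2 were measured, and their summed level was 10.04 to 12.42 in the knockouts and 12.37 to 13.96 in the wild types. The same 2 genes were detected on all wild-type arrays of cohort 1 in the brain, at 12.07 to 13.55, and in the liver, at 12.05 to 12.58. Their sum is therefore not a specific measure of precursor cells. The 6 thymocyte genes summed to 14.39 to 14.67 in the knockouts and 14.23 to 14.41 in the wild types. The part of these in the results was not tested, and in whole organs fewer cells of a type and less RNA per cell cannot be told apart.

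A limma fit over all 64 arrays, normalized together, was added after the values were seen. It asked whether the Hmgn2 knockout change in the thymus differs from the mean change in the other 3 organs. Of 6535 genes detected in every organ, 1.73% passed. Ets2 was the member that passed, with a difference of 0.65 ± 0.151 (adjusted p = 0.0212, limma). The differences of Cbr3 (-0.54), Cbr1 (-0.48), Brwd1 (0.46) and Psmg1 (-0.24) did not pass, with adjusted p between 0.0846 and 0.359. With median scaling, under which 13.3% of genes passed and all genes shifted by -0.17, Ets2 was at 0.12 and did not pass (adjusted p = 0.704, limma), while Cbr3 at -0.71 and Cbr1 at -0.66 passed (adjusted p = 0.0093 and 0.0194, limma), and relative to the shift these were 0.29, -0.54 and -0.49. In brain, liver and spleen, the Hmgn2 knockout differences of the 5 genes ran from -0.10 to 0.18, and the interval of the Cbr3 difference in the brain ran from -0.31 to 0.43.

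**Figure D2:**
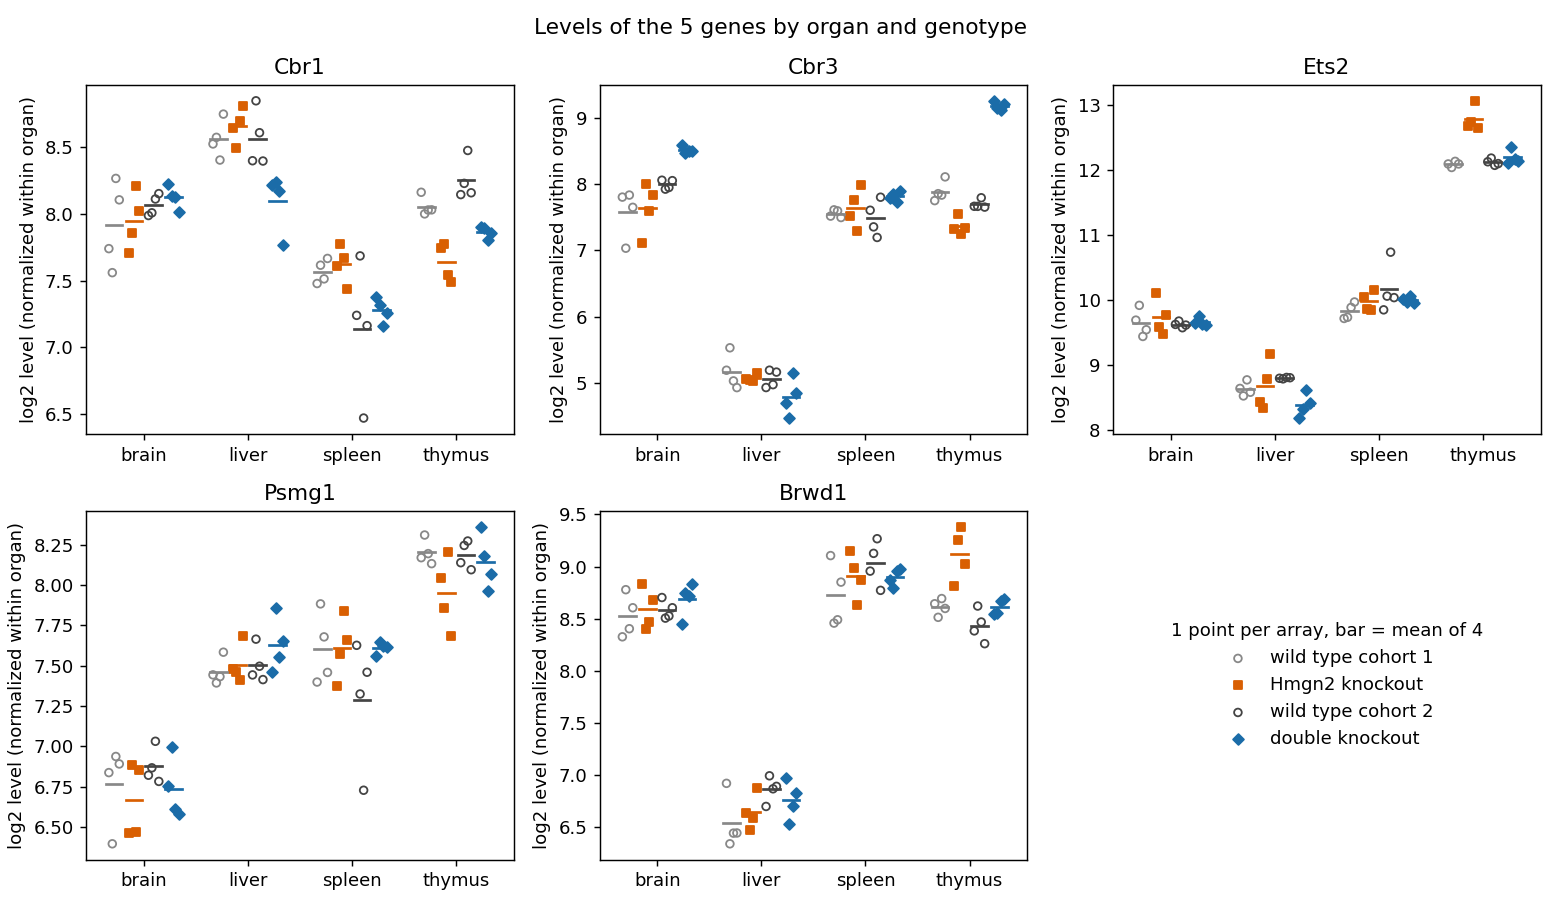
Log2 level of each of the 5 genes, normalized within each organ, by organ and genotype, with 1 point per array, a bar at the mean of 4 arrays, a separate vertical scale for each gene and, for Brwd1, a different probe in the spleen (ILMN_2421220). In the thymus, Cbr3 lies at 9.12 to 9.26 in the double knockout and 7.24 to 7.55 in the Hmgn2 knockout, and Ets2 at 12.65 to 13.07 in the Hmgn2 knockout and 12.04 to 12.36 in the other groups.

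In the thymus of the double knockout, Cbr3 was the member with the largest difference, which is the value that chose it. Cbr3 read 7.67, 7.67, 7.80 and 7.66 in the wild types of cohort 2 and 9.26, 9.16, 9.12 and 9.22 in the double knockouts. All double knockouts lay above all wild types, a difference of 1.49 and a 2.81-fold higher level. Groups did not overlap for 9.35% of genes in this comparison. Raw intensities were 315.7 to 368.0 in wild types and 665.6 to 757.5 in double knockouts. The second Cbr3 probe was higher by 1.21, with no overlap either, at 5.94 to 6.19 and 7.06 to 7.52. Since the Hmgn2 knockout had a lower Cbr3 level than its wild types, the 2 mutant changes differ by 2.02 on the log2 scale. Without double knockout replicates 2 and 3, the arrays with the higher Hmgn2 level, 2 arrays were left and the Cbr3 difference was 1.54. The part of the Hmgn2 level was not tested. The 2 of 4 listed macrophage genes that were measured summed to 8.26 to 8.70 in the double knockout thymus and 8.72 to 8.89 in its wild types, without overlap, and both were detected on all arrays. The sums of the other cell type lists overlapped between these groups, and the part of the macrophage genes was not tested.

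Cbr1, the neighbour of Cbr3, read 8.15, 8.23, 8.48 and 8.16 in the wild types of cohort 2 and 7.90, 7.89, 7.80 and 7.86 in the double knockouts. It was lower by 0.39 on average, with no overlap, and the Hmgn2 knockout value set beside it was -0.42 against its own wild types. Ets2 differed by 0.07 in the double knockout against 0.69 in the Hmgn2 knockout, and its groups overlapped at 12.08 to 12.19 and 12.11 to 12.36. Brwd1 differed by 0.18 on the main probe, with overlap, and by 0.33 and 0.26 on the other detected probes, without overlap. Psmg1 differed by -0.04 and Hmgn1 by -0.41. Hmgn1 read 12.12, 12.23, 12.14 and 12.08 in the wild types and 11.82, 11.66, 11.75 and 11.70 in the double knockouts. These thymus values carry no test because the genes were listed with them in view.

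**Figure D3:**
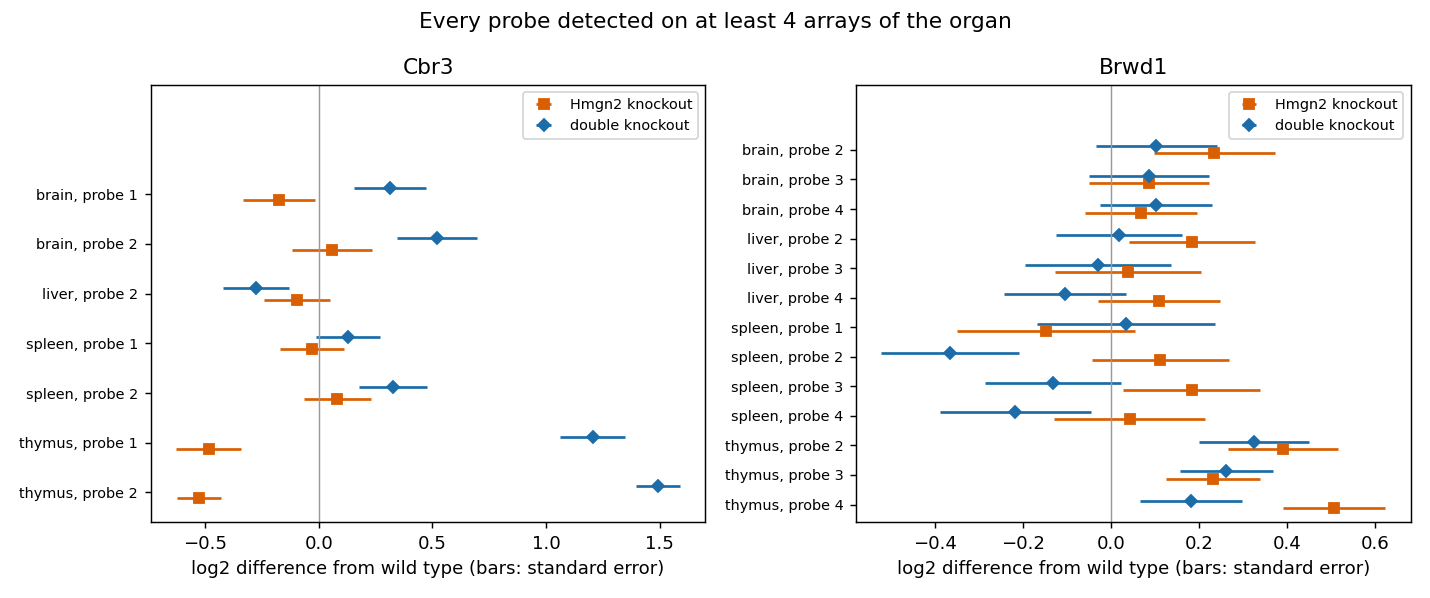
Log2 difference of each mutant from its own wild types for every Cbr3 and Brwd1 probe detected on at least 4 arrays of the organ, with standard errors; probes are numbered in the order of their codes. Both Cbr3 probes lie at 1.21 and 1.49 in the double knockout thymus and at -0.48 and -0.52 in the Hmgn2 knockout thymus.

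Outside the thymus, the double knockout called none of the 5 genes, in 15 tests over brain, liver and spleen by limma at an adjusted p under 0.05, against 0.142% of all tests. At an unadjusted p under 0.05 there were 4, and 1 was called with array weights. The share of all genes at that cut, or with array weights, was not computed here. Counts at an unadjusted p under 0.05, here and below, are therefore not set against all genes. Cbr3 was higher in the brain, in the direction seen in the thymus, without passing. It read 8.06, 7.93, 7.95 and 8.05 in the wild types of cohort 2 and 8.60, 8.47, 8.50 and 8.51 in the double knockouts. The groups did not overlap, as for 7.6% of genes in that comparison. The difference was 0.52 ± 0.176 (adjusted p = 0.56, limma) and became a call with the 8 arrays compared alone (adjusted p = 0.0282) or with array weights (adjusted p = 0.00585). The wild types of cohort 1 read 7.03 to 7.84 in the brain, below those of cohort 2, with a difference between the wild types of 0.42 ± 0.176 (adjusted p = 0.234, limma). These groups did not overlap either, as for 10% of genes, and 1.54% of genes were called between the wild types in the brain. In the second Cbr3 probe the double knockout difference in the brain was 0.31 ± 0.158, with overlap.

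In the spleen, Cbr3 read 7.61, 7.36, 7.20 and 7.80 in the libraries labelled wild type and 7.79, 7.85, 7.73 and 7.91 in those labelled double knockout. The difference was 0.33 ± 0.148 (adjusted p = 0.465, limma) with all libraries and 0.44 ± 0.166 (adjusted p = 0.422, limma) without the 2 libraries against their labels. Psmg1 differed by 0.33 ± 0.168 with them and 0.40 ± 0.203 without them, also not called. The wild-type replicate 3 of cohort 2 stood apart from its group, with the lowest spleen value of Cbr1 and Cbr3, at 6.47 and 7.20, with Psmg1 at 6.73 against 7.33 to 7.63 in the others, Ets2 at 10.74 against 9.85 to 10.07 and Hmgn1 at 11.64 against 12.30 to 12.34. Without it the double knockout difference was 0.14 for Psmg1 (adjusted p = 0.84, limma), 0.23 for Cbr3 (adjusted p = 0.755, limma), -0.09 for Cbr1 and 0.02 for Ets2. The 4 measured exocrine pancreas genes summed to between 7.21 and 15.41 in the spleens labelled wild type of cohort 2 and between 8.05 and 10.62 in those labelled double knockout. In the liver the Cbr3 difference had the other sign, at -0.28 ± 0.144, and Cbr3 was detected on 1 of 4 double knockout arrays.

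Liver values of Cbr1 and Ets2 were lower in the double knockout without passing. Cbr1 read 8.40, 8.85, 8.61 and 8.40 in the wild types and 8.21, 8.24, 8.17 and 7.77 in the double knockouts. Its difference was -0.46 ± 0.132 (adjusted p = 0.22, limma). Ets2 read 8.80, 8.79, 8.81 and 8.81 in the wild types and 8.19, 8.33, 8.62 and 8.42 in the double knockouts, a difference of -0.41 ± 0.149 (adjusted p = 0.407, limma). Neither gene's groups overlapped, as for 6.36% of genes in the liver comparison. Median scaling shifted all genes by -0.19 in this comparison, and Cbr1 and Ets2 lay 0.48 and 0.44 below that shift. The 4 measured exocrine pancreas genes, of which 1 was detected on every array, summed to 9.91 to 10.02 in the double knockout livers and 9.37 to 9.79 in their wild types, and the part of these and of the lower number of detected probes was not tested. Psmg1 and Brwd1 differed by 0.13 ± 0.106 and -0.11 ± 0.137 in the liver.

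The mean double knockout change over brain, liver and spleen, with these organs normalized together, called none of the 5 genes by limma, against 0.196% of 6645 genes. The estimates ran from -0.16 ± 0.0871 for Ets2 to 0.15 ± 0.108 for Cbr3. Without the 2 spleen libraries against their labels they ran from -0.18 to 0.19. None of the 15 tests of the double against the single knockout effect in these organs passed in limma either, against 0.0115% of all tests, with 2 at an unadjusted p under 0.05. The interval for the Cbr3 difference between the mutant effects in the brain was -0.06 to 0.98. Between the wild types of the 2 strain labels, none of the 15 tests passed, against 0.949% of all tests, with 4 at an unadjusted p under 0.05. Without the 2 spleen libraries against their labels, the spleen still gave 0 calls of the 5 genes by limma for the double knockout, for the difference of mutant effects and between the wild types, where 0.0758%, 0% and 0.184% of all genes were called, with 1, 0 and 2 of the 5 at an unadjusted p under 0.05 and a lowest adjusted p of 0.24.

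Of 34 further genes of the region in a list written for this work, 31 were on the array. In the Hmgn2 knockout thymus 21 of them were tested, of which 2 rose and 2 fell, beside 15.5% of all genes called, with a median difference of 0.10 against 0.02 over all genes. Morc3, which encodes a nuclear zinc finger protein and lies 2250 kb from Hmgn1, rose by 0.44 ± 0.111 (adjusted p = 0.0135, limma), and Ttc3, a ubiquitin ligase gene, rose by 0.41 ± 0.112 (adjusted p = 0.0201, limma). Pigp, needed for the first step of making GPI anchors, fell by 0.66 ± 0.128 (adjusted p = 0.00306, limma). Pigp and Ttc3 overlap at their ends on the map. Setd4, a methyltransferase gene that lies next to Cbr1, fell by 0.47 ± 0.136 (adjusted p = 0.0293, limma). Over 28 alternatives the Setd4 call was lost in 5, with adjusted p up to 0.116 in limma with array weights. The calls of Ttc3, Morc3 and Pigp were lost in 6, 3 and 0 of them. Without the Hmgn2 knockout thymus replicate 3 the list had 1 call, where 3.38% of all genes were higher and 5.18% lower. Without replicate 4 it had 7, where 13.8% of all genes were higher and 11.6% lower. Median scaling put Morc3 at 0.14 and Ttc3 at 0.04, which is 0.31 and 0.21 above the shift of all genes, and neither was then called. Elsewhere the list had no call for the Hmgn2 knockout in 54 further tests, nor for the double knockout in 54 tests of brain, liver and spleen by limma, with 5 of the latter at an unadjusted p under 0.05 and 1 call with array weights. Without the 2 spleen libraries the neighbours had 0 calls in the double knockout spleen.

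Within 3 Mb of Hmgn1, 25 genes of the thymus passed the detection filter, the 5 and Hmgn1 included. In the double knockout 11 of 25 were higher than in wild types, with a median of -0.02. Cbr3 at 1.49 was the largest difference and the next in size was Bace2 at -0.43. Cbr3 was chosen by this value, so its rank here is no evidence that it stands out in the region. In the brain, where 20 genes were tested, Cbr3 at 0.52 was the highest and Kcnj6 at -0.53 the lowest. In the Hmgn2 knockout thymus the largest were Ets2 at 0.69 and Pigp at -0.66.

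**Figure D4:**
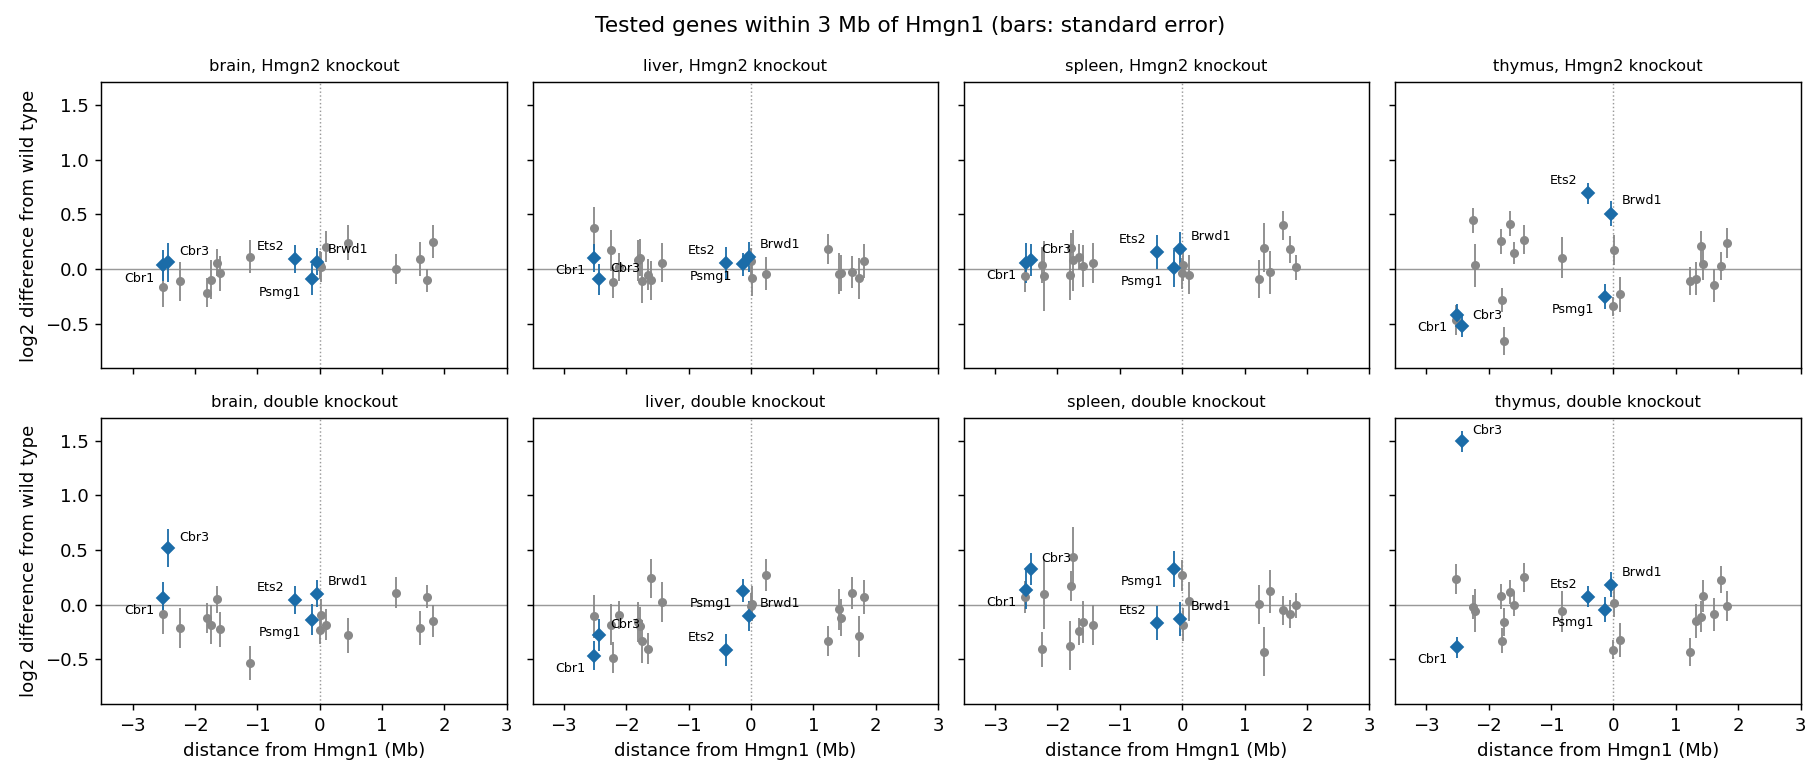
Log2 difference from wild type, with its standard error, of every tested gene within 3 Mb of Hmgn1 against distance from Hmgn1 (Mb), for each organ and mutant; blue diamonds are the 5 genes and grey points the others. Cbr3, chosen by its rise in the double knockout thymus, alone lies above 1 there. Its nearest tested neighbours, Cbr1 (72.9 kb from it), Setd4 (78.4 kb) and Morc3 (141 kb), lie at -0.39, 0.23 and -0.02.

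Genes that share a pathway with the 5 were counted for comparison. Of the proteasome core and its assembly factors, the partners of PSMG1, 15 of 18 listed genes were tested in the Hmgn2 knockout thymus, of which 0 rose and 7 fell, beside 7.22% of all genes higher and 8.32% lower, with a median of -0.32 against 0.02 for all genes. The list had 2 calls with the 8 arrays compared alone (Psmg3 and Psmb7), 4 without Hmgn2 knockout replicate 3, 10 without replicate 1 and 14 with median scaling, all of them lower, where 2.38%, 5.18%, 9.5% and 24.6% of all genes were lower. Psmg3, another assembly chaperone, fell by 0.60 ± 0.104 (adjusted p = 0.00165, limma), and the core subunit genes Psmb3 and Psmb7 fell by 0.49 ± 0.0866 and 0.56 ± 0.11 (adjusted p = 0.00178 and 0.00348, limma). Psmg1 at -0.25 lay near the list's median. No proteasome gene passed in the other organs, and in the double knockout thymus the list's median was 0.0045. In the double knockout spleen all 15 tested genes were positive, with a median of 0.32 against -0.02 for all genes, 0 called by limma (lowest adjusted p = 0.362) and 7 at an unadjusted p under 0.05, and Psmg1 differed there by 0.33. Between the wild types in the spleen 1 of the 15 was positive, with a median of -0.31 and 0 called by limma, 4 of them at an unadjusted p under 0.05. Both comparisons use the cohort 2 wild types. Without their replicate 3 the medians were 0.15, with 13 of 15 positive, and -0.11, with 3 positive, and without the 2 libraries against their labels they were 0.40, with 14 positive, and -0.35, with 1 positive.

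Of the bromodomain proteins, the wider family of BRWD1, 16 of 32 were tested in the Hmgn2 knockout thymus, of which 2 rose and 0 fell, beside 15.5% of all genes called. The list had 1 call without Hmgn2 knockout replicate 3 and without wild-type replicate 3 or 4. In these fits 3.38% to 5.33% of all genes were higher and 5.18% to 6.53% lower. Without Hmgn2 knockout replicate 1 it had 5 calls, all higher, beside 8.06% of all genes higher and 9.5% lower. Without Hmgn2 knockout replicate 4 it had 4, of which 3 rose and Kat2a fell, beside 13.8% of all genes higher and 11.6% lower. Brd8, a subunit of the NuA4 acetyltransferase complex, rose by 0.63 ± 0.151 (adjusted p = 0.0105, limma), and Atad2, an ATPase with a bromodomain, rose by 0.64 ± 0.186 (adjusted p = 0.0294, limma), though at 0.44 with median scaling (0.61 above the shift of all genes) and 0.49 without Hmgn2 knockout replicate 3 it was not called. The list's median was 0.21, and Brwd3, the closest listed relative of Brwd1, differed by 0.16 ± 0.15 without passing. Between the wild types in the brain, Brd2 differed by 0.39 ± 0.112 without passing (adjusted p = 0.0804, limma). It passed under 4 alternatives, among them median scaling at 0.73 (adjusted p = 0.00588, limma), 0.51 above a shift of all genes of 0.22, where 15.1% of genes were higher, and leaving out cohort 1 wild-type replicate 3 (adjusted p = 0.0319, limma).

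Of the ETS family, 15 of 25 further members were tested in the Hmgn2 knockout thymus, of which 1 rose and 0 fell, beside 15.5% of all genes called. Ets1, the closest relative of Ets2 and an abundant factor of T cells, rose by 0.52 ± 0.13 (adjusted p = 0.0135, limma), but was at -0.0016 with median scaling, 0.17 above the shift of all genes, and not called there, nor without Hmgn2 knockout replicate 3 (adjusted p = 0.0511) or with the 8 arrays alone (adjusted p = 0.0943). It was also higher in the brain of cohort 2 wild types than in those of cohort 1, by 0.55 ± 0.129 (adjusted p = 0.0377, limma). That call was lost under 11 of 26 alternatives, with adjusted p up to 0.117 without cohort 2 wild-type replicate 3 and 0.0503 in the authors' normalized values, and the difference ran from 0.36 to 0.76. Etv1 differed by -0.93 ± 0.285 between the same wild types (adjusted p = 0.0984, limma), and Elf2 by 0.77 ± 0.207 between the mutant effects in the spleen (adjusted p = 0.611, limma), both without passing, though Etv1 passed with median scaling at -0.79 (adjusted p = 0.0455, limma). Without the 2 spleen libraries against their labels Elf2 was at 0.62 ± 0.212 (adjusted p = 0.641, limma). The median of the list in the Hmgn2 knockout thymus was -0.05.

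Of carbonyl reductases and related oxidoreductases, not all of which reduce carbonyls, 12 of 20 listed genes other than Cbr1 and Cbr3 were tested in the Hmgn2 knockout thymus. Of these 1 rose and 1 fell, beside 15.5% of all genes called. With median scaling 0 rose and 8 fell, beside 0.907% of all genes higher and 24.6% lower under that scaling. Hsd17b4, an enzyme of fatty acid oxidation in peroxisomes, rose by 0.37 ± 0.092 (adjusted p = 0.0136, limma), and Dcxr, a dicarbonyl and xylulose reductase, fell by 0.51 ± 0.154 (adjusted p = 0.0328, limma). Hsd17b4 was at 0.03, 0.20 above the shift of all genes, and not called with median scaling, and Dcxr was not called without any 1 of 6 arrays of the comparison. Akr1c14 differed by -0.68 ± 0.184 between the wild types in the liver without passing (adjusted p = 0.0839, limma), but passed with array weights at -0.76 (adjusted p = 0.0136) and without liver double knockout replicate 3 (adjusted p = 0.0379). In the double knockout thymus, where Cbr3 was 1.49 higher, the 12 genes ran from -0.29 to 0.36 with a median of -0.05. In human cells CBR3 is known as a target of NRF2, the factor of the antioxidant response, so NRF2 targets were counted too. Of 18 tested of 30 listed in the Hmgn2 knockout thymus, 0 rose and 1 fell, beside 15.5% of all genes called. With median scaling 7 fell, beside 24.6% of all genes lower. The gene called without median scaling was Abcc3, an export pump, which fell by 0.48 ± 0.153 (adjusted p = 0.0428, limma), with a call lost without any 1 of 7 of the 8 arrays compared. In the double knockout thymus these 18 ran from -0.36 to 0.61 with a median of -0.02, given without a test. Elsewhere the smallest p-values of the list were those of Txnrd1 between the wild types in the liver, at -0.55 ± 0.173, and of Gstm1 in the double knockout liver, at -0.53 ± 0.171, neither of which passed (adjusted p = 0.133 and 0.321, limma). Txnrd1 passed with array weights (adjusted p = 0.0446, limma).

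Across the 16 means of organ and genotype, the genes most like each of the 5 were sought among 11365 genes, as a description in which the organ sets most of the spread. Cbr1 was closest to Gpx4 (Pearson's r = 0.98), Sirt5 (0.97) and Ndufs3 (0.97), and Cbr3 to Rgs12, Ctc1 and Nudc (0.93 each). Ets2 was closest to Ift80, Fam221a and Glcci1 (0.99 each), Psmg1 to Bbc3, Fam83f and Dctpp1 (0.98 each), and Brwd1 to Farsb, Bclaf1 and Dcaf7 (0.98 each). The means include the double knockout thymus.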

How the data were processed

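The authors deposited, per the file headers, a raw linear intensity and a detection p-value for every probe and array, and a table of normalized intensity; the submitters' processing notes name GenomeStudio 2011.1. Per the labels, total RNA (Trizol, then RNeasy columns) was checked on gels and labelled with biotin by Ambion MessageAmp. From the raw intensities, neqc of limma 3.58.1 in R 4.3.3 gave log2 values within each organ (background from detection p-values, offset 16, quantile normalization). Probes with detection p under 0.01 on at least 4 of 16 arrays were kept, and the probe with the highest mean stood for a gene. Each organ was fitted with 4 group means, and p-values were adjusted by Benjamini-Hochberg over all genes. The mean over brain, liver and spleen took the mouse as a random block.

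The 5 genes and the gene lists were chosen with earlier results of these data known. The text names all probes of the 5 genes, Hmgn1, Hmgn2, each gene of the region that passed, up to 3 genes per other list with the smallest p, and the 3 genes most correlated with each of the 5; the extremes Bace2 and Kcnj6, and Brwd3, were named after their values were seen. Each mouse is a separate animal. The number of arrays limits the precision, and no counts or depth exist. On simulated data in the thymus, 44.8% of genes changed by 0.5 and 97% of those changed by 1 on the log2 scale were recovered. At 0.5 the share was 46.3% in the brain, 49.3% in the liver and 19.4% in the spleen, and at 1 it was 97%, 97% and 91%. The simulation changed 67 genes at each of these sizes, while 15.5% of genes were called in the real Hmgn2 knockout thymus. Probes without a gene (1719) were left out. No pair of arrays held identical values.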

Additional observations from a re-analysis of the deposited data

Results flagged for a closer look

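Cbr3 in the thymus moved in opposite directions in the mutants. All 4 Hmgn2 knockouts lay below their wild types and all 4 double knockouts above theirs, and the changes differed by 2.02 on the log2 scale. Groups did not overlap for 15.3% and 9.35% of all genes in these comparisons. The difference of 2.02 was not tested, since Cbr3 was chosen on these values.

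Ets2 differed between organs in the Hmgn2 knockout. Its change in the thymus exceeded the mean change in brain, liver and spleen by 0.65 (adjusted p = 0.0212 in the limma fit over all arrays, a test added after the values were seen). With median scaling this difference was 0.12, 0.29 above the shift of all genes, and did not pass (adjusted p = 0.704, limma), and the Ets2 change in the thymus alone was 0.19 in place of 0.69 and was not called.

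Among 80 groups of 4 arrays checked for a value standing far from the others, of which chance would single out about 1 in 20, there were 2. Cbr1 in the liver of double knockout replicate 4 read 7.77, where the others read 8.17 to 8.24. Cbr3 in the thymus of cohort 2 wild-type replicate 3 read 7.80, where the others read 7.66 to 7.67.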

How the results depend on the processing

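The 4 calls of the 5 genes in the Hmgn2 knockout thymus were made again with each array left out in turn (4 to 4 calls) and with the authors' normalized values. With the 8 arrays compared alone, 2 of them remained (Ets2 and Cbr3), where 0.63% of all genes were higher and 2.38% lower. The neighbours of Hmgn1 then had 1 call in place of 4, and the double knockout had 1 call of the 5 genes (Cbr3 in the brain). Array weights gave 1 call of the 5 genes in the double knockout, 1 between the wild types and 1 of the neighbours in the double knockout. The shares of all genes called in those comparisons, with the 8 arrays alone or with array weights, are not given here. Median scaling gave 1 call of the 5 genes between the wild types (Cbr3 in the brain). Cbr3 was there at 0.65, 0.43 above a shift of all genes of 0.22, where 15.1% of genes were higher. The same scaling ended the calls of Ets2 and Brwd1, and put Ets1 in the Hmgn2 knockout thymus at -0.0016 (adjusted p = 0.994 in limma). Leaving out 1 array at a time gave 1 to 7 calls of neighbours in the Hmgn2 knockout. The 1 call came where 3.38% of all thymus genes were higher and 5.18% lower, and the 7 where 13.8% and 11.6% were. In the double knockout it gave 0 to 1 calls of neighbours, the latter without brain wild-type replicate 4 of cohort 2. Counts of the 5 genes stayed at 0 in the other comparisons within single organs when 1 array was left out. Over 3026 values of single genes under an alternative, 1 call changed sign (Ets1 with median scaling, still 0.17 above the shift of all genes) and 84 uncalled values did. The Cbr3 difference in the double knockout thymus ran from 1.18 to 1.53. With the replicate number as a block, the Hmgn2 knockout kept a count of 4 calls of the 5 genes and had 3 of the neighbours; in none of the 8 comparisons did every equal-numbered pair correlate above 0.1, the highest single pair being at 0.648. The comparison of mutant effects has no value with 8 arrays alone. Causes of these differences were not tested. The values without double knockout thymus replicates 2 and 3, and the wild-type spleen levels without 1 library, were added after the data were seen. In the liver, Cbr3 was close to background, and its second probe was detected on 0 arrays.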
